A study of Mus musculus with 9 samples.

Results

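The core circadian clock genes are the 10 genes Arntl (also called Bmal1), Clock, Per1, Per2, Per3, Cry1, Cry2, Nr1d1, Nr1d2 and Dbp, described here in brown adipose tissue of obese mice. They were taken by gene symbol with no filter on measured values, though earlier results of these data were known. They were 10 of the 49315 genes listed for each library. All 10 passed the filter on low counts that left 14747 genes for testing. Brown fat burns fuel to make heat, and its RNA was sequenced in 5 mice given cotadutide and 4 mice given vehicle, 1 library per mouse. Cotadutide is a peptide that activates the receptors of glucagon-like peptide 1 and of glucagon. The question was which mRNAs of this tissue differ after the drug.

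All 9 mice were male C57Bl/6J on a 60% high fat diet. At 14 weeks of age and about 50 g, after 3 weeks of acclimation, they were singly housed and dosed under the skin every day for 28 days, and they were not kept at thermoneutrality. Each library was made from polyadenylated RNA of 30 mg of tissue. The hour of tissue collection is not given in the sources used here, so levels of rhythmic genes are single readings at an unknown time of day, and a shift in phase cannot be told apart from a change in mean level. In bulk tissue, fewer cells of a type and less RNA per cell cannot be told apart either.

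The mammalian clock is a feedback loop of transcription and translation that runs in nearly every cell, brown adipocytes included. The proteins of Arntl and Clock form a pair that binds DNA letters called E-boxes and switches on the Per and Cry genes, whose proteins return to the nucleus and inhibit that pair. In a second loop the nuclear receptors Nr1d1 and Nr1d2, also targets of the pair, repress Arntl through sites shared with their activators, the ROR receptors. Dbp is an output factor driven from E-boxes, and its protein acts on D-boxes. Because of this wiring, Arntl mRNA peaks at about the opposite time of day to Nr1d1, Dbp and the Per genes, while Cry1 peaks later than the Per genes.

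These motifs were looked for in promoter windows of RefSeq (GRCm38.p6), each running from 250 bases before a start site to 50 bases after it. Of the 10 genes, 9 matched by symbol, with 13 windows in all, and Per2 had none. Letters were searched on both strands, and no motif overlapped another in the windows printed here. The canonical E-box CACGTG stood in windows of Per1 and Cry1, and 7.15% of all 32851 windows held it. The related word CACGTT stood in those of Cry1, Cry2 and Nr1d1, against 4.68% of all windows. A D-box (TTATGTAA or TTACGTAA) was present only in Per3 among the 13 windows, against 1.06% of all windows. The ROR half-site AGGTCA, the core of the site that Nr1d1 and Nr1d2 bind, was found in windows of Arntl, Clock, Per1 and Nr1d2, against 16.3% of all windows. These shares are of single windows, whereas Arntl and Per1 had 2 windows each and Clock had 3, with the half-site in only 1. A count of genes is therefore not on the same footing as such a share. A match is only a run of letters and was not tested for binding.

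Windows of 5 genes are printed 5′ to 3′ on the strand of the gene, with the matches in capitals. Only windows with a match are printed. Per1 and Arntl had 2 windows each, and for both the window without a match is left out. The window of Dbp held no match. Per1 (chr11:69098699-69098998, + strand) carries an E-box 166 bases before the start and, 137 bases before it, the half-site on the opposite strand (TGACCT). Per3 (chr4:151044616-151044915, - strand) carries 2 D-boxes, 205 and 158 bases before the start. Cry1 (chr10:85185005-85185304, - strand) carries the word AACGTG, which is CACGTT on the opposite strand, 79 bases before the start and the E-box 60 bases before it. Nr1d2 (chr14:18239057-18239356, - strand) carries the half-site 77 bases before the start, and Arntl (chr7:113207261-113207560, + strand) carries it 31 bases after the start.
Per1: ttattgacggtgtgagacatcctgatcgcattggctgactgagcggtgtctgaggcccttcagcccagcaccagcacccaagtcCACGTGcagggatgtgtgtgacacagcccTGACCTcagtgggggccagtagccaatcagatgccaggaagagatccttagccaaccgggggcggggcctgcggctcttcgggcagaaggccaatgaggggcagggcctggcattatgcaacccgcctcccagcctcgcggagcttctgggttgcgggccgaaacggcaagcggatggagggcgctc
Per3: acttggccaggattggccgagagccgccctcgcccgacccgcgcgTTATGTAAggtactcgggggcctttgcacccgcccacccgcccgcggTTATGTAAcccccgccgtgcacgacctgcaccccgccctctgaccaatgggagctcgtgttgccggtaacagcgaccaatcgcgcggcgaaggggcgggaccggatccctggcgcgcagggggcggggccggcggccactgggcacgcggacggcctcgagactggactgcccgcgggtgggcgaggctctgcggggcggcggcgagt
Cry1: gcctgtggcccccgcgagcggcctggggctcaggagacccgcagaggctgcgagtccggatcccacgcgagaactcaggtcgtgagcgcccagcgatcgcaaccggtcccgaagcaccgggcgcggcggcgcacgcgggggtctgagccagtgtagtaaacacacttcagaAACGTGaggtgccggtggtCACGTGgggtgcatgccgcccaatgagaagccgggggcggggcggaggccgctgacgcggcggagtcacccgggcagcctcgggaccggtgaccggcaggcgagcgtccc
Nr1d2: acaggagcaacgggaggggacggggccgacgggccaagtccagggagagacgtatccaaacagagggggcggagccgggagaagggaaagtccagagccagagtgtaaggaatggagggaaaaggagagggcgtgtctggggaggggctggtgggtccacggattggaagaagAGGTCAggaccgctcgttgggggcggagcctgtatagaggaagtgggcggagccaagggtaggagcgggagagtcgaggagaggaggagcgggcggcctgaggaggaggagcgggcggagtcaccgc
Arntl: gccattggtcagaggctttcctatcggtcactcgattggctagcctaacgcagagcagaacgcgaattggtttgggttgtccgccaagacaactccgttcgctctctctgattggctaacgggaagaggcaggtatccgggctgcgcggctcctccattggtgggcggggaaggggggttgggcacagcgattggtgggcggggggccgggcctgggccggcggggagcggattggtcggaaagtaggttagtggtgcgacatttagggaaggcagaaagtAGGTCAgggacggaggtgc

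Totals per library were 10.8 to 19.5 M counts (M, mega) in cotadutide mice and 16.1 to 25.1 M counts in vehicle mice. The brown adipocyte markers, Ucp1 and Cidea among them, were abundant in every library, with a summed level of 10020 to 14360 CPM in cotadutide mice and 6745 to 10420 CPM in vehicle mice. CPM are counts per 1 M counts of the library total, with TMM scaling (trimmed mean of M values). Of the 8 brown adipocyte markers, 2 were called higher (Cidea and Cox8b) and 0 lower, and all 8 fold changes were positive. Over all genes tested, 9.31% were called higher and 9.34% lower. Among markers of other cells, only the skeletal muscle sums did not overlap between the groups. The 11 skeletal muscle markers, 5 of them called lower, summed to 4734 to 17610 CPM in cotadutide mice and 20030 to 44080 CPM in vehicle mice. The 8 macrophage markers, 6 of them called lower, summed to 165 to 331 CPM in cotadutide mice and 259 to 450 CPM in vehicle mice. The white adipocyte markers, 3 of 6 tested called lower (Lep, Npr3 and Mest), had a median log2 fold change of -1.59 and summed to 169 to 556 CPM in cotadutide mice and 393 to 1119 CPM in vehicle mice. The endothelial markers, 1 of 5 called higher, summed to 388 to 507 CPM in cotadutide mice and 381 to 465 CPM in vehicle mice. The nerve markers, 0 of 4 tested called, summed to 226 to 280 CPM in cotadutide mice and 270 to 331 CPM in vehicle mice. A pair of libraries stood apart. Cotadutide mouse 3 had 25.0 CPM of lymphoid markers, against 1.92 to 2.93 CPM in the other cotadutide mice and 2.02 to 2.83 CPM in vehicle mice. Vehicle mouse 4 had 50.3 CPM of the adipocyte hormone mRNA Lep, against 14.2 to 44.3 CPM in cotadutide mice and 271 to 320 CPM in the other vehicle mice, and it had the highest muscle sum.

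Across all 14747 genes, the quasi-likelihood test of edgeR (p adjusted by Benjamini and Hochberg) called 1373 genes higher (9.31%) and 1378 lower (9.34%) in cotadutide mice, together 18.7%. With library totals in place of the scaling, the counts were 1046 higher and 1658 lower. Among the core clock genes, 2 of 10 were called lower, Per2 and Nr1d2, and 0 of 10 were called higher. Fold changes below are log2, cotadutide minus vehicle, from this fit, and values of a group are mean ± SD with n = 5 cotadutide and n = 4 vehicle mice. Of the 10 fold changes, 6 were negative and 4 positive, with a median of -0.24, beside a median of 0.0031 over all genes tested. The positive ones of Per1 and Nr1d1 were 0.01, and turned to -0.05 and -0.06 with library totals in place of the scaling. Nr1d1 had the highest group means per kilobase of exon, with 42.5 ± 10.2 CPM per kb in cotadutide mice and 42.1 ± 2.91 CPM per kb in vehicle mice. Arntl had the lowest, with 0.87 ± 0.35 CPM per kb in cotadutide mice and 0.73 ± 0.29 CPM per kb in vehicle mice.

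**Figure D1:**
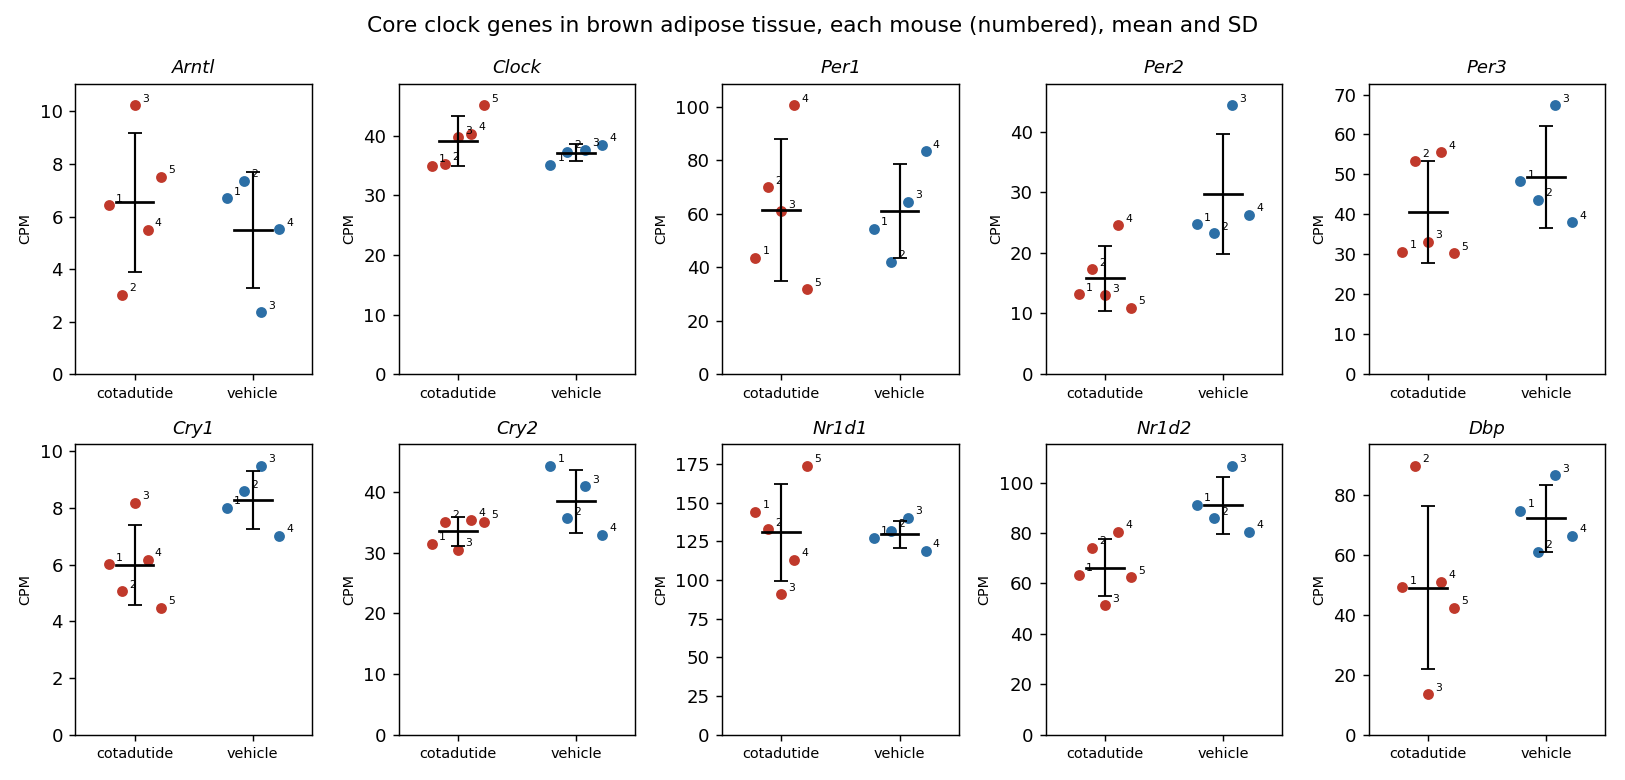
CPM of the 10 core clock genes in each mouse, with cotadutide mice (red, n = 5) left of vehicle mice (blue, n = 4); digits are mouse numbers, and bars are the mean with the SD. Per2 averaged 15.8 CPM in cotadutide mice and 29.6 CPM in vehicle mice, while Arntl, Clock, Per1 and Nr1d1 overlapped widely.

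The activator pair did not pass the test. Arntl, which encodes the rhythmic partner of the pair and lies on chromosome 7 from 113207465 to 113314126 (mm10, + strand), had 6.43, 3.01, 10.2, 5.51 and 7.52 CPM in cotadutide mice 1 to 5, against 6.69, 7.36, 2.36 and 5.51 CPM in vehicle mice 1 to 4. Cotadutide mouse 2 and vehicle mouse 3 were the low libraries of their groups, cotadutide mouse 3 was the highest of all, and the groups overlapped. The log2 fold change was 0.23 (SE 0.36, 95% interval -0.55 to 1.02, edgeR adjusted p = 0.673), and it was -0.02 without vehicle mouse 3 and -0.02 without cotadutide mouse 3. The gene was lowly counted, with 495 reads in cotadutide mice and 493 reads in vehicle mice. Clock, the partner that is transcribed at a nearly constant level in many tissues, averaged 39.1 ± 4.17 CPM in cotadutide mice and 37.2 ± 1.45 CPM in vehicle mice. Its log2 fold change of 0.07 had a 95% interval of -0.12 to 0.26 (edgeR adjusted p = 0.580).

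Per2 fell. This repressor, which lies at the centre of the negative limb, had 13.2, 17.3, 13.0, 24.6 and 10.9 CPM in cotadutide mice 1 to 5, against 24.7, 23.2, 44.4 and 26.3 CPM in vehicle mice 1 to 4. In 4 of 5 cotadutide mice Per2 was below the lowest vehicle mouse, cotadutide mouse 4 was within the vehicle range, and vehicle mouse 3 was far above the other vehicle mice. Means of 15.8 ± 5.41 CPM in cotadutide mice and 29.6 ± 9.90 CPM in vehicle mice made it 1.86 times lower (log2 fold change -0.89, SE 0.25, 95% interval -1.45 to -0.34, edgeR adjusted p = 0.0353). The fold change was negative in all 19 alternative fits and past the threshold in 8 of them. The call was lost without the filter on low counts (edgeR adjusted p = 0.124). It was also lost without cotadutide mouse 1, 2 or 3 or vehicle mouse 1, 2, 3 or 4, with edgeR adjusted p of 0.0581, 0.0936, 0.0772, 0.0767, 0.0641, 0.101 and 0.0584 in that order, and the fold change without vehicle mouse 3 was -0.64.

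The other Per genes gave no call. Per1, the family member that hormones and cyclic AMP induce most directly, had 43.6, 69.9, 60.9, 100.7 and 31.7 CPM in cotadutide mice 1 to 5, against 54.4, 41.9, 64.6 and 83.5 CPM in vehicle mice 1 to 4. Cotadutide mouse 4 and vehicle mouse 4, which are separate animals, were each the highest of their group. The groups overlapped widely (log2 fold change 0.01, SE 0.30, 95% interval -0.65 to 0.67, edgeR adjusted p = 0.983). A list of 12 glucocorticoid target genes was then read for the same mice, after the values were seen. Cotadutide mouse 4 was the highest of the cotadutide mice for 8 of the 12 genes. Vehicle mouse 4 was the highest of the vehicle mice for 10, and 7 genes were in both counts. The share of all tested genes that were highest in mouse 4 was not computed, so these counts cannot be called particular to this list. The exceptions in 1 group or both were Dusp1, Lcn2, Klf9, Mt1 and Sult1a1, and Dusp1 was lowest of the vehicle mice in vehicle mouse 4. Fkbp5, a chaperone that binds the glucocorticoid receptor, was at 35.9 CPM in cotadutide mouse 4 (at most 19.4 CPM in the other cotadutide mice) and at 45.4 CPM in vehicle mouse 4 (at most 18.9 CPM in the other vehicle mice). Tsc22d3, a glucocorticoid-induced leucine zipper gene, was at 108.0 CPM in cotadutide mouse 4 (50.9 to 68.5 CPM in the other cotadutide mice) and at 149 CPM in vehicle mouse 4 (66.2 to 89.4 CPM in the other vehicle mice). Whether these genes and Per1 were high in mouse 4 for a shared reason was not tested. Per3, the member that is least needed for rhythm in mice, averaged 40.6 ± 12.8 CPM in cotadutide mice and 49.3 ± 12.7 CPM in vehicle mice (log2 fold change -0.28, SE 0.23, edgeR adjusted p = 0.406), and 3 of 5 cotadutide mice were below the lowest vehicle mouse.

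Cry1, the stronger repressor of the cryptochrome pair, had 6.02, 5.06, 8.18, 6.17 and 4.47 CPM in cotadutide mice 1 to 5, against 8.01, 8.59, 9.48 and 7.02 CPM in vehicle mice 1 to 4. In 4 of 5 cotadutide mice it was below the lowest vehicle mouse, and cotadutide mouse 3 was among the vehicle mice. It did not pass the test (log2 fold change -0.46, SE 0.17, 95% interval -0.83 to -0.10, edgeR adjusted p = 0.0719). It passed in 5 of 19 alternatives and missed the threshold in 14. DESeq2 gave an adjusted p of 0.0492, and edgeR gave 0.0367 without cotadutide mouse 3 and 0.0460 without vehicle mouse 4, the only passes among the 9 fits that left out 1 library. Cry2 averaged 33.5 ± 2.36 CPM in cotadutide mice and 38.5 ± 5.13 CPM in vehicle mice (log2 fold change -0.20, SE 0.10, edgeR adjusted p = 0.163).

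Nr1d2, which encodes REV-ERB beta, fell. It had 63.3, 74.2, 51.3, 80.4 and 62.4 CPM in cotadutide mice 1 to 5, against 91.2, 85.8, 106.6 and 80.4 CPM in vehicle mice 1 to 4. Cotadutide mouse 4 and vehicle mouse 4 met at the same printed level, the other 4 cotadutide mice were below every vehicle mouse, and vehicle mouse 3 was the highest. The means were 66.3 ± 11.3 CPM in cotadutide mice and 91.0 ± 11.3 CPM in vehicle mice, a level 1.37 times lower (log2 fold change -0.46, SE 0.13, 95% interval -0.73 to -0.18, edgeR adjusted p = 0.0328). Unrounded, each cotadutide value was below each vehicle value, which held for 1 of the 10 core clock genes and for 7.79% of all genes tested. The opposite order held for 0 of the 10 and for 8.06% of all genes. The fold change was negative in all 19 alternative fits and past the threshold in 11 of them. The call was lost without cotadutide mouse 2, 3 or 5 or vehicle mouse 1, 2 or 3, with edgeR adjusted p of 0.0548, 0.0538, 0.0520, 0.0848, 0.0680 and 0.0926 in that order.

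Nr1d1, which encodes REV-ERB alpha, did not pass the test, although it is regarded as the partner of Nr1d2 with a nearly shared rhythm. It had 144.2, 132.8, 90.7, 112.9 and 173.7 CPM in cotadutide mice 1 to 5, against 127.1, 131.9, 140.1 and 118.7 CPM in vehicle mice 1 to 4. The cotadutide mice spread to both sides of the vehicle mice, which lay close together (log2 fold change 0.01, SE 0.16, 95% interval -0.33 to 0.36, edgeR adjusted p = 0.955). Its exons share 263 bases (8.55%) with those of Thra, a thyroid hormone receptor gene on the opposite strand. Thra rose, with 111 ± 7.64 CPM in cotadutide mice and 93.0 ± 4.37 CPM in vehicle mice (log2 fold change 0.26, edgeR adjusted p = 0.0393). The strand setting of the counting is not given in the sources used here, so reads in the shared bases cannot be told apart.

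Dbp, the output factor, did not pass the test, and among cotadutide mice it had the highest coefficient of variation of the 10 genes, 55.4%. It had 49.1, 89.6, 13.5, 50.9 and 42.3 CPM in cotadutide mice 1 to 5, against 74.6, 61.1, 86.5 and 66.3 CPM in vehicle mice 1 to 4. Cotadutide mouse 3 was far below all other libraries, cotadutide mouse 2 was above all of them, and the other 3 cotadutide mice were below every vehicle mouse. The log2 fold change was -0.55 (SE 0.37, 95% interval -1.38 to 0.27, edgeR adjusted p = 0.314), and it was -0.34 without cotadutide mouse 3. Dbp shares 539 exon bases (18.0%) with Sphk2, a sphingosine kinase gene on the opposite strand, which averaged 22.2 ± 2.35 CPM in cotadutide mice and 17.0 ± 4.35 CPM in vehicle mice (edgeR adjusted p = 0.0988).

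The spread between mice within a group was above the median of other genes for 8 of the 10 genes in cotadutide mice and for 8 in vehicle mice. The coefficient of variation (SD over mean of CPM) of Dbp was 55.4% in cotadutide mice and 15.4% in vehicle mice, that of Per1 43.3% and 28.7% in cotadutide and vehicle mice, and that of Arntl 40.6% and 40.5% in cotadutide and vehicle mice. Per2 varied by 34.3% in cotadutide mice and 33.4% in vehicle mice. The smallest values were 7.05% for Cry2 in cotadutide mice and 3.89% for Clock in vehicle mice. Over the 10136 genes with a mean of at least 5 CPM, the median was 11.3% in cotadutide mice and 10.6% in vehicle mice. No test was run on the spread.

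Relations between Arntl and its repressors and outputs were read as ratios within a library, which do not depend on its total. With the hour of collection unknown, such a ratio cannot tell a shift in phase from a change in level. The log2 ratio of Arntl to each of the 8 other repressors and outputs was compared between groups by exact two-sided permutation tests, with 0.00794 the smallest p possible. All 8 differences were positive, all share the Arntl values, and none of them passed. Arntl to Per2 averaged -1.30 ± 0.96 in cotadutide mice and -2.48 ± 1.15 in vehicle mice (difference 1.18, exact permutation p = 0.127, adjusted over 8 ratios 0.571). Arntl to Cry1 averaged 0.05 ± 0.55 in cotadutide mice and -0.70 ± 0.84 in vehicle mice (difference 0.75, exact permutation p = 0.143, adjusted 0.571). Arntl to Dbp averaged -2.76 ± 1.60 in cotadutide mice and -3.80 ± 0.92 in vehicle mice (difference 1.04, exact permutation p = 0.286, adjusted 0.571).

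Ratios between paralogs were added after the data were seen, 5 in all, and those of Per2 differed. Per2 to Per3 was -1.21, -1.62, -1.34, -1.17 and -1.46 in cotadutide mice 1 to 5, against -0.96, -0.90, -0.60 and -0.53 in vehicle mice 1 to 4 (log2). All 5 cotadutide mice were below all 4 vehicle mice (difference -0.61, exact permutation p = 0.00794, the smallest possible, adjusted over 5 ratios 0.0397). Per2 to Per1 averaged -1.90 ± 0.28 in cotadutide mice and -1.05 ± 0.48 in vehicle mice. That difference was -0.85 (exact permutation p = 0.0159, adjusted 0.0397), with vehicle mouse 4 among the cotadutide mice. Both calls were lost when any single library except vehicle mouse 4 was left out (adjusted 0.0714 to 0.143), and 0.0179 or 0.0286 is the smallest exact permutation p that so few mice allow. They were lost too for the difference of medians (adjusted 0.0595 each by the exact permutation test), and that of Per2 to Per1 also with a prior count of 5. These ratios were picked with the lower Per2 in view, so they are no separate support for it. Nr1d2 to Nr1d1 averaged -0.96 ± 0.38 in cotadutide mice and -0.51 ± 0.10 in vehicle mice (difference -0.45, exact permutation p = 0.0556, adjusted 0.0926). Cry1 to Cry2 differed by -0.29 (adjusted 0.298) and Per3 to Per1 by -0.24 (adjusted 0.437 by the exact permutation test), neither past the threshold.

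**Figure D2:**
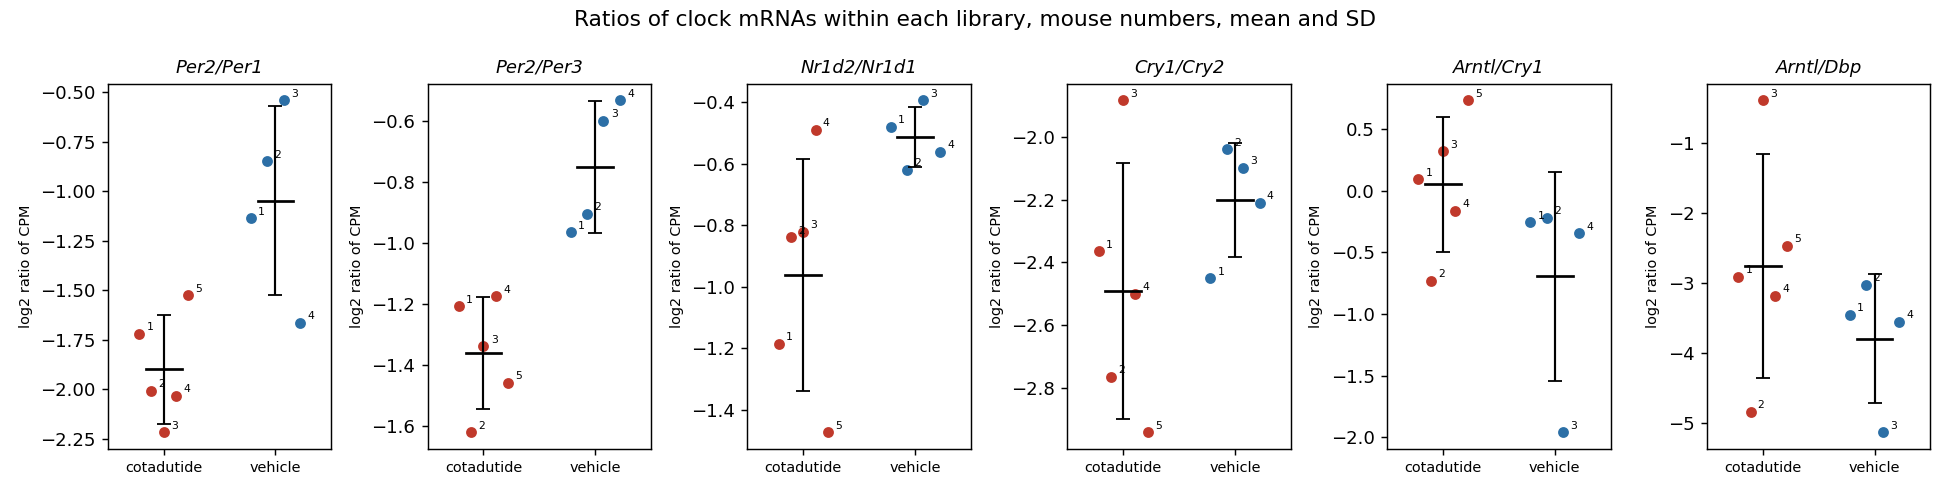
Log2 ratios of CPM within each library for 6 pairs of clock mRNAs, with cotadutide mice (red, n = 5) left of vehicle mice (blue, n = 4); digits are mouse numbers, bars are the mean with the SD, and each panel has its own axis. For Per2 to Per3 the cotadutide mice (-1.62 to -1.17) lie below the vehicle mice (-0.96 to -0.53), and the Arntl ratios overlap.

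Across the 9 mice, Arntl ran opposite to most of its repressors and outputs, in log2 CPM. Pearson's r was -0.77 with Per3 (exact permutation p = 0.0124, adjusted over 8 relations 0.0994) and Spearman's rank coefficient was -0.77 (exact permutation p = 0.0214, adjusted 0.0856). With Dbp, r was -0.74 (exact permutation p = 0.0253, adjusted 0.101) and Spearman's coefficient -0.77 (exact permutation p = 0.0214, adjusted 0.0856). None of the 8 relations passed after adjustment. The low Arntl libraries, cotadutide mouse 2 and vehicle mouse 3, held the 2 highest Dbp values, and the highest Arntl library, cotadutide mouse 3, held the lowest Dbp.

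Without those 2 low Arntl libraries, and over a narrower Arntl range, r with Per3 weakened to -0.47 (exact permutation p = 0.292, adjusted 0.496). With Dbp it was then -0.81 (exact permutation p = 0.0452, adjusted 0.322, n = 7). Those 7 libraries still held cotadutide mouse 3, with the highest Arntl and the lowest Dbp. How far the Dbp relation rested on that mouse, or the Per3 relation on the 2 low Arntl libraries, was not tested. With the group means removed, r was -0.76 with Per3, -0.74 with Dbp, -0.77 with Nr1d2 and -0.73 with Per2, and each had an exact permutation p adjusted to 0.0861, 0.0861, 0.0861 and 0.0965. Over the 9 mice r was -0.65 with Nr1d2, -0.63 with Per2, -0.42 with Cry2, -0.38 with Per1 and -0.29 with Nr1d1, with adjusted exact permutation p from 0.150 to 0.503. Spearman's coefficient with these 5 genes was -0.53, -0.67, -0.28, -0.67 and -0.13 in that order, with adjusted exact permutation p from 0.118 to 0.850. Cry1 gave r = -0.04 and a Spearman coefficient of -0.03 (exact permutation p = 0.917 and 0.948), close to 0 in these mice.

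**Figure D3:**
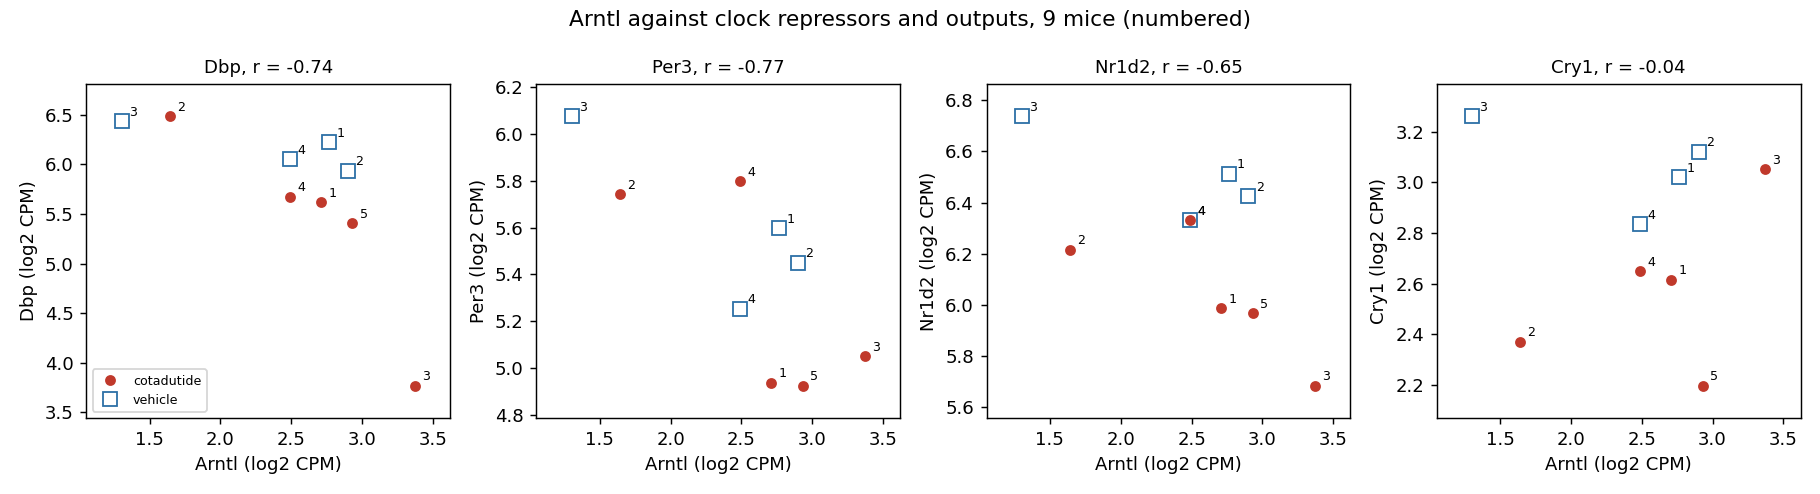
Log2 CPM of Dbp, Per3, Nr1d2 and Cry1 against log2 CPM of Arntl, 1 point per mouse with its number, for cotadutide (red dots, n = 5) and vehicle (blue squares, n = 4). Cotadutide mouse 2 and vehicle mouse 3 lie at low Arntl and high Dbp, and cotadutide mouse 3 at high Arntl and low Dbp (r = -0.74), while Cry1 shows no slope (r = -0.04).

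The genes most like Arntl and Dbp were ranked among 9570 protein-coding genes by Pearson's r of log2 CPM over the 9 libraries, as a description. Most like Arntl were Them6 (r = 0.90), Dcaf15 (0.90), Adora2a (0.87) and Rnf20 (0.87), and most unlike it were Ankrd11 (-0.91), Flvcr1 (-0.85), Nrip1 (-0.82) and Zfp317 (-0.82). Most like Dbp were Nmd3 (r = 0.96), Bhlhe40 (0.95), Ap3m1 (0.91) and Synj2bp (0.91), and most unlike it were Sart1 (-0.94), Sh3bp4 (-0.94), Fam207a (-0.92) and Spice1 (-0.92). Bhlhe40 and Bhlhe41 encode DEC1 and DEC2, repressors that are themselves E-box targets. Bhlhe40 ranked 2 of 9570 for Dbp and 9562 of 9570 for Arntl (r = -0.79), and Bhlhe41 ranked 5 for Dbp (r = 0.91). Bhlhe40, like Dbp, was lowest in cotadutide mouse 3, with 26.0 CPM. The other cotadutide mice had 60.9 to 86.5 CPM of it, and vehicle mice had 60.9 to 97.6 CPM.

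Among 16 other clock regulators and outputs, 1 rose and 2 fell, with a median log2 fold change of -0.23, where 9.31% of all genes tested rose and 9.34% fell. Bhlhe41 had 15.5, 19.7, 6.47, 15.0 and 18.7 CPM in cotadutide mice 1 to 5, against 25.4, 25.7, 33.2 and 26.8 CPM in vehicle mice 1 to 4. All cotadutide mice were below all vehicle mice (log2 fold change -0.88, SE 0.25, edgeR adjusted p = 0.0340). Hlf, a factor of the same PAR bZIP family as Dbp, averaged 25.3 ± 4.99 CPM in cotadutide mice and 36.9 ± 7.42 CPM in vehicle mice (log2 fold change -0.54, SE 0.16, edgeR adjusted p = 0.0428). Tef, the third PAR bZIP factor, averaged 134 ± 26.9 CPM in cotadutide mice and 182 ± 25.3 CPM in vehicle mice and did not pass the test (log2 fold change -0.44, SE 0.15, edgeR adjusted p = 0.0561).

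Npas2, which can stand in for Clock, was the 1 gene of this list that rose, with 0.68 ± 0.06 CPM in cotadutide mice and 0.29 ± 0.13 CPM in vehicle mice (log2 fold change 1.16, SE 0.33, edgeR adjusted p = 0.0338). Few reads were counted for this gene, 53 in cotadutide mice and 26 in vehicle mice. Rora, an activating receptor at the sites of Nr1d1 and Nr1d2, averaged 23.8 ± 3.98 CPM in cotadutide mice and 32.3 ± 7.10 CPM in vehicle mice (log2 fold change -0.44, SE 0.15, edgeR adjusted p = 0.0675). Leaving out a single library ended the call of Npas2 for cotadutide mouse 2, 3 or 4 or vehicle mouse 1, 2 or 3, and that of Bhlhe41 for cotadutide mouse 2 or 4 or any vehicle mouse. The call of Hlf was lost without cotadutide mouse 1, 2, 3 or 5 or vehicle mouse 1, 2 or 3. Over these fits, the edgeR adjusted p was at most 0.0889 for Npas2, 0.0955 for Bhlhe41 and 0.118 for Hlf. All 3 calls were also lost without the filter on low counts (edgeR adjusted p = 0.102 for Npas2, 0.119 for Bhlhe41 and 0.0680 for Hlf). With the muscle level of each library as a covariate, the log2 fold change was -0.45 for Bhlhe41, 1.18 for Npas2 and -0.79 for Hlf. None of these 3 passed there (edgeR adjusted p = 0.547, 0.312 and 0.264 in that order). Drug and muscle level cannot be told apart in that fit, as the muscle levels of the groups did not overlap.

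**Figure D4:**
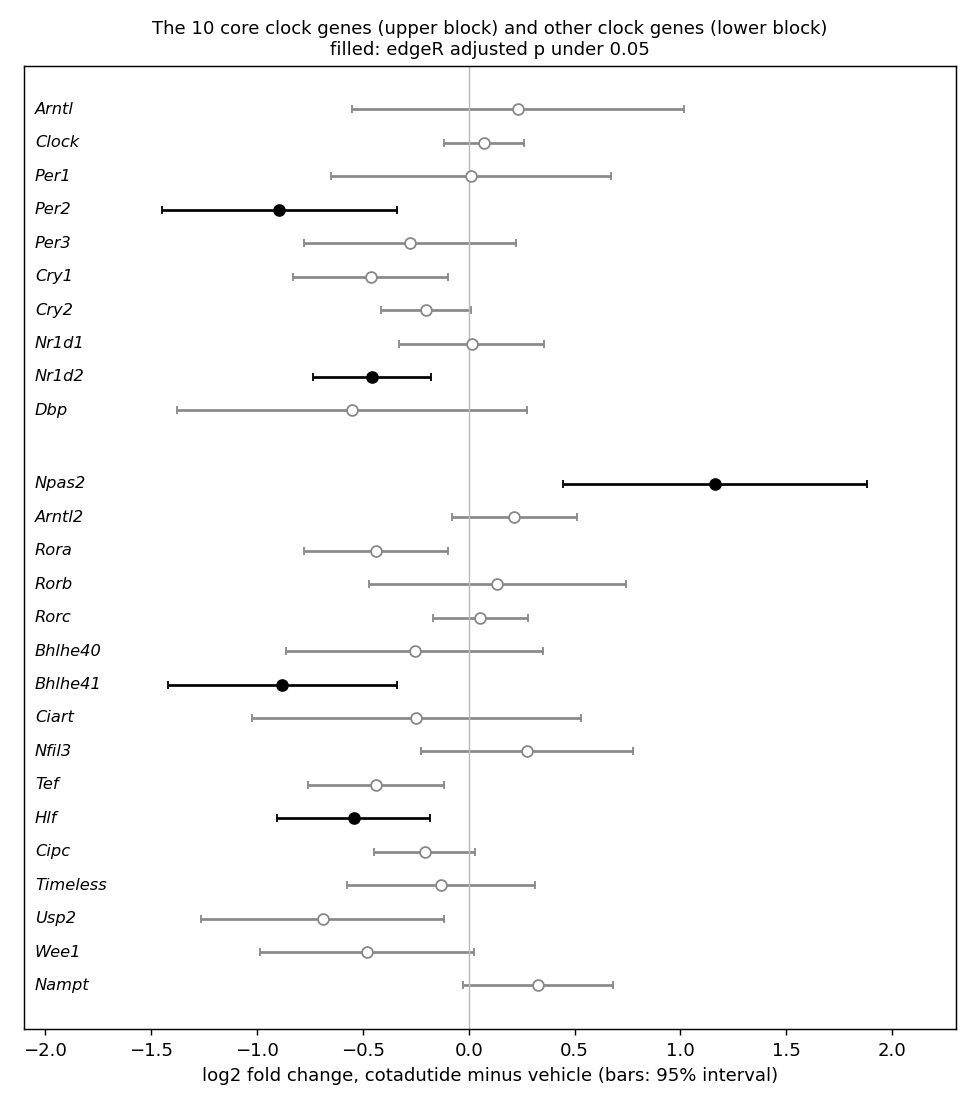
Log2 fold changes, cotadutide minus vehicle, with 95% intervals from the edgeR fit for the 10 core clock genes (upper block) and the 16 other clock regulators and outputs (lower block); filled points have an edgeR adjusted p under 0.05. Per2 (-0.89), Nr1d2 (-0.46), Bhlhe41 (-0.88), Hlf (-0.54) and Npas2 (1.16) are filled.

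The 17 kinases and ubiquitin ligase genes that modify clock proteins gave 0 higher and 1 lower, with a median log2 fold change of -0.02, beside the 9.31% and 9.34% of all genes. Prkaa2, the catalytic subunit of AMP-activated kinase that is abundant in muscle, averaged 25.5 ± 7.23 CPM in cotadutide mice and 40.8 ± 6.46 CPM in vehicle mice (log2 fold change -0.68, SE 0.20, edgeR adjusted p = 0.0415). The muscle markers were lower in the same mice, and with the muscle level as a covariate the log2 fold change of Prkaa2 was 0.0028. The muscle levels of the groups did not overlap, so drug and muscle level cannot be told apart in that fit. The casein kinase gene Csnk1e, whose protein phosphorylates PER proteins, averaged 30.5 ± 2.62 CPM in cotadutide mice and 34.5 ± 0.64 CPM in vehicle mice (log2 fold change -0.18, edgeR adjusted p = 0.128). Gsk3b (-0.23, edgeR adjusted p = 0.119), Fbxw11 (-0.21, edgeR adjusted p = 0.129) and Csnk2b (0.20, edgeR adjusted p = 0.140) did not pass either.

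Signals that can set Per genes acutely were read from lists of their targets. Of 12 glucocorticoid target genes, 0 rose and 1 fell, beside 9.31% and 9.34% of all genes, with a median log2 fold change of 0.06. Dusp1, a phosphatase of MAP kinases, averaged 106 ± 14.0 CPM in cotadutide mice and 176 ± 46.2 CPM in vehicle mice (log2 fold change -0.73, SE 0.16, edgeR adjusted p = 0.0184). Mt1 (0.68, edgeR adjusted p = 0.0961), Tsc22d3 (-0.50, edgeR adjusted p = 0.189), Lcn2 (-1.01, edgeR adjusted p = 0.190) and Ddit4 (0.92, edgeR adjusted p = 0.336) did not pass.

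Of 14 cyclic AMP and immediate early genes, 2 rose and 0 fell, beside 9.31% and 9.34% of all genes, with a median log2 fold change of -0.47. Pde4d, a phosphodiesterase that breaks down cyclic AMP, averaged 61.7 ± 17.4 CPM in cotadutide mice and 35.9 ± 5.65 CPM in vehicle mice (log2 fold change 0.78, SE 0.20, edgeR adjusted p = 0.0260). Nr4a2, an inducible nuclear receptor, averaged 13.2 ± 4.79 CPM in cotadutide mice and 7.06 ± 0.84 CPM in vehicle mice (log2 fold change 0.90, SE 0.24, edgeR adjusted p = 0.0304). Sik1 (0.59, edgeR adjusted p = 0.0691), Atf3 (-1.17, edgeR adjusted p = 0.0765) and Pde4b (-0.54, edgeR adjusted p = 0.0814) did not pass. Calls of single genes in these 3 lists were lost when some libraries were left out. For Prkaa2 these were cotadutide mouse 2 or 4 or any vehicle mouse, and for Dusp1 vehicle mouse 1 or 2. For Pde4d they were cotadutide mouse 2, 3 or 4 or vehicle mouse 1, 2 or 3, and for Nr4a2 cotadutide mouse 2 or 3 or vehicle mouse 1, 2 or 3. Without the filter on low counts the calls of Prkaa2, Pde4d and Nr4a2 were lost (edgeR adjusted p = 0.113, 0.0866 and 0.0744) and that of Dusp1 was kept (0.0126). With the muscle level as a covariate, the log2 fold change was 0.37 for Pde4d, 0.15 for Nr4a2 and -0.78 for Dusp1. None of these passed there (edgeR adjusted p = 0.518, 0.778 and 0.264 in that order). That fit cannot tell drug from muscle level, as the muscle levels of the groups did not overlap.

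The muscle, macrophage and white adipocyte sums given above were on the whole lower in cotadutide mice, as were Per2 and Nr1d2. Whether they go together from mouse to mouse within a group was not tested. The muscle levels of the groups did not overlap, so a fit with that covariate cannot tell drug from muscle level. With the muscle level of each library as a covariate, the log2 fold change was -1.09 for Per2 (edgeR adjusted p = 0.298) and -0.43 for Nr1d2 (edgeR adjusted p = 0.331), and 0 genes were called over the whole tissue. Cry1 had a log2 fold change of -0.85 there (edgeR adjusted p = 0.241). That fit had 2282 genes at an unadjusted p under 0.05. With both libraries that stood apart left out, cotadutide mouse 3 and vehicle mouse 4, Nr1d2 kept its call (log2 fold change -0.43, edgeR adjusted p = 0.0239) and Cry1 gained one (-0.66, edgeR adjusted p = 0.0136). Per2 did not pass there (-0.88, edgeR adjusted p = 0.101). The part of tissue make-up in these values was otherwise not tested.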

How the data were processed

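The deposited values are raw read counts by Ensembl gene, in 1 file a library, with mm10 coordinates. Per the submitters' processing notes, the tools were STAR 2.5.2b, featureCounts of Subread 1.5.2, Trimmomatic 0.36 and bcl2fastq 2.17. Their settings, the annotation release and the strand were not given. Symbols were matched for 48970 of 49315 genes.

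Counts were filtered with filterByExpr (14747 genes, 99.87% of counts), TMM scaled and tested with edgeR 4.0.16 (glmQLFit, robust, glmQLFTest; R 4.3.3) with group as the only term, Benjamini-Hochberg adjustment over all tested genes and a threshold of 0.05. Log2 CPM for ratios and correlations used a prior count of 2. DESeq2 1.42.0 and limma 3.58.1 were alternatives. The scripts were tested on simulated data. The labels gave the groups and mouse numbers, and each mouse is a separate animal. Over all tested genes the deviations of same-numbered mice correlated weakly, which cannot exclude an hour or order of collection shared by number. No library pair agreed within counting noise. The common biological coefficient of variation was 17.0%.

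The members, gene lists and tests were chosen with earlier results of these data known. All 10 members are named. From each list the at most 5 genes with the smallest adjusted p are named, and for Arntl and Dbp the 4 most and 4 least alike genes (mean at least 5 CPM). Fkbp5, Klf9 and Sult1a1 were named after their values were seen.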

Additional observations from a re-analysis of the deposited data

Results flagged for a closer look

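Per2 in vehicle mouse 3 was 44.4 CPM, set apart from the other vehicle mice, the nearest of which was at 26.3 CPM. Gaps of this size were looked for in 20 groups (10 genes in cotadutide mice and in vehicle mice), and chance marks about 1 in 20 groups of this kind, so 1 such group is no more than chance gives. Without vehicle mouse 3, the log2 fold change of Per2 was -0.64 and no longer passed the test (edgeR adjusted p = 0.101).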

How the results depend on the processing

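Per2 and Nr1d2 kept a negative fold change in all 19 alternatives, with log2 values of -1.14 to -0.64 for Per2 and -0.56 to -0.38 for Nr1d2. The number of clock genes called lower ranged from 0 to 2 when 1 library was left out, and it was 0 without vehicle mouse 1, 2 or 3 or cotadutide mouse 2. Over all genes these fits called 42 to 2116 higher and 92 to 1724 lower. Without a filter on low counts 900 genes were called higher, and the calls of Per2, Npas2, Bhlhe41, Hlf, Prkaa2, Pde4d and Nr4a2 were lost. With the muscle level as a covariate 0 were called higher, 0 lower and 0 clock genes lower, and Prkaa2 turned to 0.0028; the muscle levels of the groups did not overlap, so drug and muscle level cannot be told apart. With the mouse number as a replicate block, 516 genes were called higher, 768 lower and 0 clock genes lower. The correlations of deviations of same-numbered mice were 0.135, -0.040, 0.023 and -0.011, and not every mouse correlated best with its own number. Being taken over all tested genes, these values cannot exclude an hour or order of collection shared by number. The Per2 to Per1 difference was -0.84 with a prior count of 5, -1.01 between medians, -0.98 without both cotadutide mouse 3 and vehicle mouse 4, and -1.06 to -0.68 leaving out 1 library. Per2 to Per3 was -0.59 between medians, -0.54 without both, and -0.68 to -0.54 leaving out 1 library. Of these, both ratios passed only without vehicle mouse 4; elsewhere the adjusted exact permutation p was 0.0595 or above, and the cause was not tested beyond the fewer mice. Depth limits Npas2, with 2 reads in its lowest library, and Arntl, with 40.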
